A study of Aedes aegypti with 12 samples.

Results

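The transcripts of the mitochondrial genome were taken as all rows that the deposited tables place on chromosome MT, which gave 25 of 19256 genes. They comprise 2 ribosomal RNA rows, for the 12S and 16S rRNAs, and 23 transfer RNA rows. None of the 13 protein-coding genes that the AaegL5.0 reference table lists on the mitochondrial genome has a row in the values used here. The label of mitochondrial genome transcripts therefore covers rRNA and tRNA rows alone. The libraries came from brain and fat body of the mosquito Aedes aegypti, the fat body being the tissue in which insects store nutrients. Mosquitoes with a mutant AaegGr34, a gustatory receptor gene, were set against unmutated wild-type mosquitoes of the Liverpool strain (WT) within each tissue, with 3 libraries in each of the 4 groups: Gr34 brain, WT brain, Gr34 fat body and WT fat body. The series' design text calls the 3 libraries of a group biological replicates. The kind of mutation and the animals' sex, age and feeding state are not stated in the labels.

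The mitochondrial genome of animals is a small circle transcribed from both strands into long precursors. In these precursors tRNAs lie between many of the mRNAs and rRNAs and mark where the RNA is cut, and the rRNAs form the RNA core of the mitochondrial ribosome, 12S in its small and 16S in its large subunit. The tRNAs carry amino acids to that ribosome, which makes membrane subunits of the respiratory chain, while the polymerase, processing enzymes and tRNA ligases are encoded in the nucleus and imported.

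Libraries were made from polyA RNA with random primers, per the labels, and fragments were selected to be longer than a tRNA gene, so a read counted in a tRNA row need not come from a mature tRNA. The labels do not state how strand or multi-mapped reads were treated. Of the 300 member values, 276 were not whole numbers (92%, against 25.4% of all values in the tables), and none of the 25 rows held whole counts throughout, so reads of overlapping, opposite-strand or near-identical genes are uncertain in all of them. Each library held 18.5 M to 31.3 M counts in all, of which 52470 to 217289 fell in mitochondrial rows. Gr34 itself (LOC5570009) had 6, 11 and 28 counts in Gr34 brain and 24, 22 and 7 in WT brain, and 2, 11 and 2 in Gr34 fat body and 2, 4 and 16 in WT fat body, so its counts did not separate the genotypes. Neuron markers (19 genes) took 0.0575% to 0.140% of counts in fat body libraries and 0.485% to 0.601% in brain libraries, and fat body markers (26 genes) 0.418% to 0.600% in fat body and 0.0750% to 0.134% in brain. Photoreceptor markers (37 genes) took 20.5% to 27.3% of counts in the libraries labelled brain. In such bulk samples, fewer cells of a type and less RNA per cell cannot be told apart.

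The 16S rRNA (CFI06_mgr02, positions 12566 to 13899 of MT on AaegL5.0, minus strand) made up 97.6% to 98.7% of the mitochondrial counts in every library. By TMM-scaled CPM, the count relative to library size, it stood at 6251, 7196 and 9641 in Gr34 brain, against 5118, 4419.7 and 5729.9 in WT brain. All 3 Gr34 brain libraries lay above all 3 WT brain libraries. The difference was 0.61 ± 0.18 (log2 fold change, SE), with an adjusted p of 0.0894 in edgeR's quasi-likelihood test, above the threshold of 0.05, and an adjusted p of 0.0127 in DESeq2. In fat body, 16S reached 8970.5, 3273 and 3224 CPM in Gr34 libraries and 6306, 6725 and 2091 CPM in WT libraries. Replicates of the same genotype differed there by more than the genotypes did, with a log2 fold change of 0.10 ± 0.66. By count, 16S ranked 5th to 9th among all genes in brain libraries and 10th to 67th in fat body libraries.

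The 12S rRNA (CFI06_mgr01, positions 13973 to 14659, minus strand) gave far fewer counts, although it lies beside 16S with tRNA-Val between them. It had 9.42, 10.5 and 10.2 CPM in Gr34 brain and 13.1, 12.9 and 10.9 CPM in WT brain. In CPM every Gr34 brain library was lower than every WT brain library, while in TPM the genotypes overlapped, at 28.2 to 30.1 in Gr34 brain and 28.9 to 39.1 in WT brain. The log2 fold change of -0.28 ± 0.12 did not pass (adjusted p = 0.214, edgeR). In fat body, 12S counts were 22.5, 18.9 and 10.2 in Gr34 libraries and 13.1, 16.8 and 8.46 in WT libraries, which overlap. These counts correspond to 0.574 to 1.46 CPM in Gr34 fat body and 0.324 to 0.812 CPM in WT fat body.

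**Figure D1:**
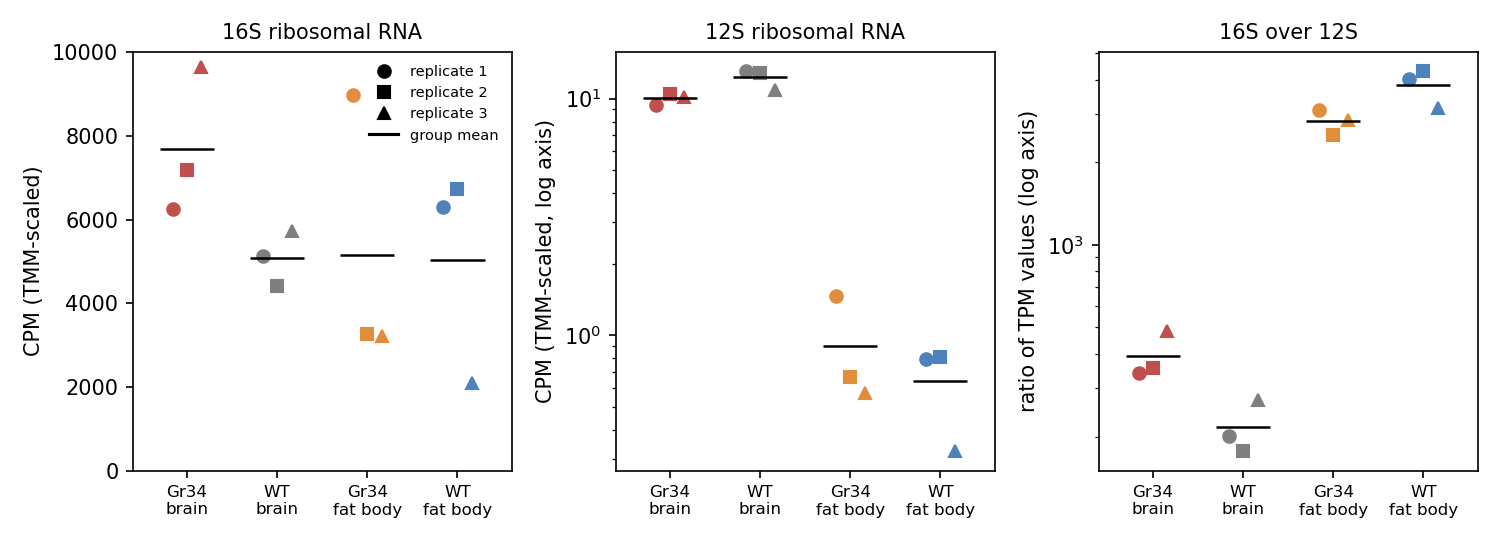
CPM of 16S (linear axis), CPM of 12S (log axis) and the ratio of 16S to 12S in TPM (log axis) in Gr34 brain, WT brain, Gr34 fat body and WT fat body; points are libraries, marked by replicate, and bars are group means. The ratio is 342 to 486 in Gr34 brain and 177 to 272 in WT brain, and 2521 to 3090 in Gr34 fat body and 3145 to 4313 in WT fat body.

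Taken per length, as TPM, 16S exceeded 12S by 342, 354 and 486 times in Gr34 brain and by 201, 177 and 272 times in WT brain. In fat body the ratio was 3090, 2521 and 2843 in Gr34 libraries and 4022, 4313 and 3145 in WT libraries. The libraries were made from polyA RNA, so these ratios compare counted reads and need not equal the ratio of the rRNAs in the tissue. The genotypes do not overlap in either tissue, and they stand in opposite order. In fat body this order rests on few 12S counts, 10.2 to 22.5 in Gr34 and 8.46 to 16.8 in WT libraries. Such counts overlap and limit its precision. The log2 ratio of 12S to 16S counts was -9.56 ± 0.28 in Gr34 brain and -8.69 ± 0.32 in WT brain (SD, n = 3 each), a difference of -0.87. In fat body it was -12.41 ± 0.15 in Gr34 and -12.85 ± 0.24 in WT libraries (SD, n = 3 each), a difference of 0.43. Each difference had a two-sided exact permutation p of 0.1, the smallest that 3 against 3 libraries allow. The difference between the tissues in the genotype effect was 1.30 on the log2 scale. Permuting genotype labels within each tissue gave an exact p of 0.005 for it over 400 arrangements, the smallest these can give. After Benjamini-Hochberg adjustment over the 3 measures so tested it was 0.015. The null of this permutation is no genotype effect in either tissue, so it does not test whether the effects are equal. With the genotypes fully apart in opposite order, the p-value could only be this smallest one and adds nothing to that separation. The ratio was chosen after the data were seen, so these p-values do not test a pattern set in advance. In edgeR's test on each gene alone, the difference between tissues in the genotype effect was 0.85 ± 0.55 for 12S and -0.47 ± 0.72 for 16S, and neither passed. Beside these ratios, fat body markers took 0.116% to 0.134% of counts in Gr34 brain and 0.0750% to 0.102% in WT brain. None of these 26 was at 0 in every library. Photoreceptor markers took 20.5% to 22.4% in Gr34 brain and 22.7% to 27.3% in WT brain. By gene, 3 of 33 photoreceptor markers tested in brain were called higher in Gr34 and 3 lower. Of 12 fat body markers tested there, 3 were called higher and 0 lower, with a median log2 fold change of 0.56. Of all genes tested in brain, 8.86% were called in either direction and 4.60% higher. The part of these 2 marker lists in the result was not tested. Gut markers (122 genes, 16 at 0 in every library) took 0.0422%, 0.563% and 1.04% in Gr34 fat body and 0.118%, 0.0396% and 0.0460% in WT fat body, and their part was not tested either.

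Among the tRNA rows, tRNA-Lys (CFI06_mgt06, positions 3588 to 3658, plus strand, between COX2 and tRNA-Asp) rose in Gr34 brain. Its estimated counts were low throughout: 14.8, 20.3 and 15.2 in Gr34 brain and 3.17, 4.56 and 2.56 in WT brain. The lowest Gr34 brain library lay above the highest WT brain library, with a log2 fold change of 2.36 ± 0.41 (adjusted p = 0.0157, edgeR). In fat body it had 13.1, 19.2 and 17.1 counts in Gr34 libraries and 2.63, 2.44 and 2.05 in WT libraries. The genotypes again did not overlap, and the log2 fold change of 2.83 ± 0.56 missed the threshold in edgeR (adjusted p = 0.123) and passed in DESeq2 (adjusted p = 0.0318). Averaged over both tissues in a fit of all 12 libraries, an added comparison, tRNA-Lys rose by 2.60 ± 0.32 (adjusted p = 0.000992, edgeR). It was the only one of 14 tested rows called there by edgeR, where 4.66% of all tested genes were called and 2.41% were called higher; DESeq2 also called tRNA-Tyr, against 8.91% of all tested genes. In CPM it was also the only one of the 14 whose Gr34 libraries all lay above the WT libraries in both tissues, a pattern of 2.00% of all tested genes, and none of the 14 lay below in both, a pattern of 2.41%. In TPM, tRNA-Tyr and tRNA-Gly had that pattern too, making 3 of the 14 against 2.19% of all tested genes. In this average 4 of 44 gut markers tested were called higher and 0 lower. Their median log2 fold change was 1.36, against 0.02 over all genes tested. By library the gut marker share overlapped between genotypes in both tissues. It was 0.0283% to 0.211% in Gr34 brain and 0.0826% to 0.112% in WT brain. In fat body it was 0.0422% to 1.04% in Gr34 and 0.0396% to 0.118% in WT libraries. The part of gut markers in the tRNA-Lys call was not tested. The genotype effect on tRNA-Lys differed between fat body and brain by 0.54 ± 0.65 on the log2 scale, which did not pass (adjusted p = 0.990, edgeR).

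The next row along the genome is tRNA-Asp (CFI06_mgt07, positions 3675 to 3743, plus strand, before ATP8), which fell below the filter on low counts. It had 11.03, 6.09 and 5.93 counts in Gr34 brain and 2.94, 1.93 and 1.25 in WT brain, and 3.71, 6.27 and 6.44 in Gr34 fat body and 0.94, 0.86 and 1.5 in WT fat body. The Gr34 libraries were above the WT libraries in both tissues. tRNA-Trp (CFI06_mgt02, positions 1096 to 1165, plus strand) had 4.27, 3.89 and 3.62 counts in Gr34 brain, against 4.0, 2.18 and 1.31 in WT brain, and 5.15, 1.61 and 4.32 in Gr34 fat body, against 0.45, 0.17 and 0.06 in WT fat body. In brain its counts overlapped between genotypes but its CPM did not, at 0.173 to 0.181 in Gr34 brain and 0.0477 to 0.123 in WT brain, and in fat body the counts did not overlap either. With the filter removed, a setting that puts such counts in the fit, the average over tissues was called for both, at 2.04 ± 0.42 for tRNA-Asp (adjusted p = 0.0171) and 3.09 ± 0.72 for tRNA-Trp (adjusted p = 0.0404, edgeR). Under that setting 3.86% of all tested genes were called, and both rows were picked out after their values were seen. Neither was called in brain or fat body alone under that setting. For tRNA-Trp in WT fat body every library was under 1 count, so its fitted fold change depends on the fit's prior and is no bound.

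**Figure D2:**
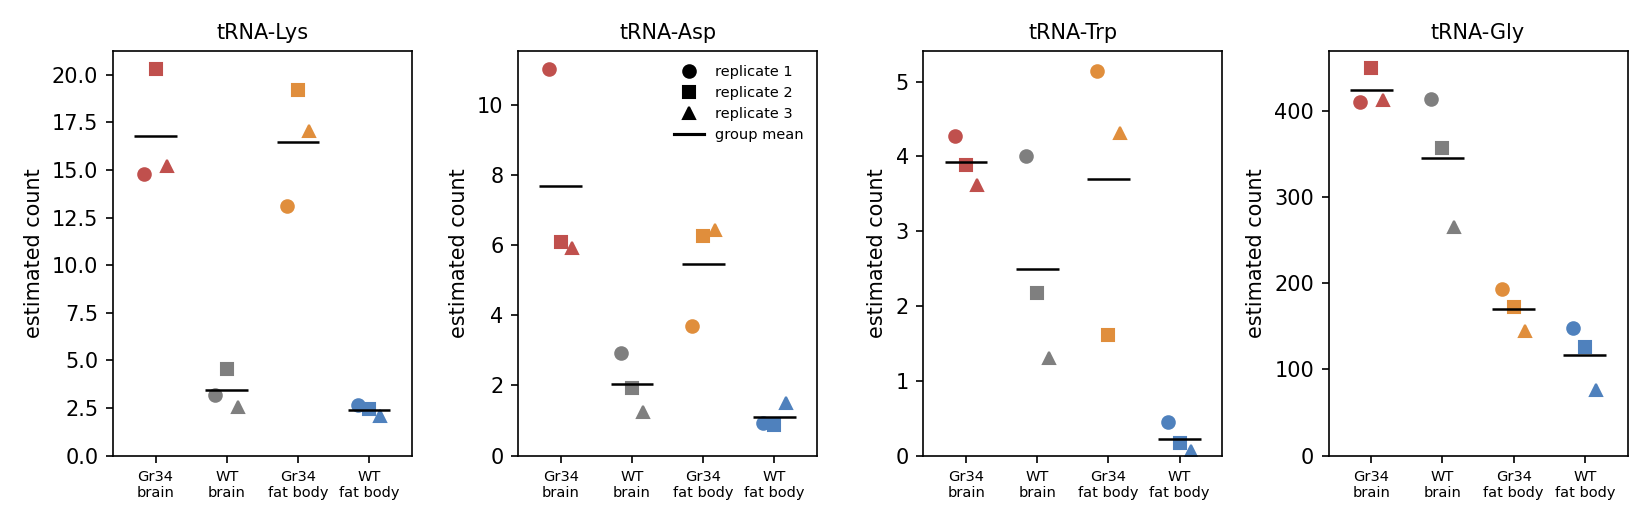
Estimated counts of tRNA-Lys, tRNA-Asp, tRNA-Trp and tRNA-Gly in each library of Gr34 brain, WT brain, Gr34 fat body and WT fat body, on linear axes from 0; points are libraries and bars are group means. For tRNA-Lys the Gr34 libraries lie between 13.1 and 20.3 counts and the WT libraries between 2.05 and 4.56.

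The tRNA-Gly row (CFI06_mgt08, positions 5371 to 5437, plus strand, between COX3 and ND3) was the other one that rose in Gr34 brain. It had 18.4, 19.4 and 18.6 CPM in Gr34 brain, against 12.7, 14.3 and 12.6 CPM in WT brain. No library of one genotype reached the other, and the log2 fold change was 0.53 ± 0.10 (adjusted p = 0.0211, edgeR). In fat body it had 12.8, 6.07 and 8.26 CPM in Gr34 libraries and 9.09, 6.02 and 3.08 CPM in WT libraries, which overlap, with a log2 fold change of 0.64 ± 0.47 that was not called. In TPM these libraries did not overlap, at 168 to 178 in Gr34 fat body and 86.2 to 139 in WT fat body. Together tRNA-Lys and tRNA-Gly made 2 called rows, both higher, of 13 that passed the filter in brain, where 8.86% of all tested genes were called in either direction and 4.60% higher. Both brain calls were lost when any one of WT brain replicate 1, WT brain replicate 2, Gr34 brain replicate 1 or Gr34 brain replicate 2 was left out, with adjusted p up to 0.0749 for tRNA-Lys and 0.0912 for tRNA-Gly in edgeR. The fat body and photoreceptor marker shares given above, which did not overlap between Gr34 and WT brain, moved with these calls as well, and their part in them was not tested. By gene, 3 of 33 photoreceptor markers tested in brain were called higher in Gr34 and 3 lower, with a median log2 fold change of -0.12. Of 12 fat body markers tested there, 3 were called higher and 0 lower, with a median of 0.56. DESeq2 called 6 rows, all higher in Gr34 brain, against 13.7% of all tested genes called in either direction and 7.26% called higher; to tRNA-Lys and tRNA-Gly it added 16S, tRNA-Cys, tRNA-Tyr and the tRNA-Leu beside 16S. The same 6 rows were called in brain in the authors' deposited table, among 20 mitochondrial rows that have an adjusted p there.

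The adjacent tRNA-Cys (CFI06_mgt03, positions 1165 to 1231) and tRNA-Tyr (CFI06_mgt04, positions 1232 to 1299) lie on the minus strand just before COX1, and tRNA-Tyr overlaps COX1 by 2 bases. tRNA-Tyr had 16.3, 12.0 and 10.9 CPM in Gr34 brain and 7.58, 7.70 and 8.96 CPM in WT brain. tRNA-Cys had 6.10, 4.45 and 3.48 CPM in Gr34 brain and 2.58, 2.29 and 2.81 CPM in WT brain. For both, all Gr34 brain libraries lay above all WT brain libraries. The log2 fold changes were 0.72 ± 0.18 (adjusted p = 0.0519) for tRNA-Tyr and 0.89 ± 0.25 (adjusted p = 0.0731) for tRNA-Cys in edgeR, so neither was called by it. In fat body tRNA-Tyr reached 8.92, 5.54 and 10.6 CPM in Gr34 libraries and 6.64, 3.15 and 1.78 CPM in WT libraries. tRNA-Cys there had 2.93, 2.15 and 4.13 CPM in Gr34 libraries and 3.20, 0.765 and 0.486 CPM in WT libraries. WT fat body replicate 1 was the highest WT library for both and, in CPM, overlapped the Gr34 fat body libraries. In TPM the overlap held for tRNA-Cys but not for tRNA-Tyr, which stood at 122 to 213 in Gr34 fat body and 48.5 to 87.7 in WT fat body.

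The tRNA-Leu that abuts 16S (CFI06_mgt19, positions 12498 to 12565, minus strand) had more counts than any other tRNA row in each library, and these were 0.902% to 1.12% of the 16S count. Its levels were 64.5, 73.5 and 102 CPM in Gr34 brain and 48.5, 49.3 and 61.8 CPM in WT brain. In fat body they were 80.9, 31.8 and 32.1 CPM in Gr34 libraries and 68.3, 65.0 and 20.9 CPM in WT libraries. As for 16S, the brain libraries did not overlap between genotypes and the fat body libraries did, with log2 fold changes of 0.60 ± 0.18 in brain (adjusted p = 0.0960, edgeR) and -0.03 ± 0.55 in fat body. No gap separates the 2 genes, and the labels do not state how reads across their border were assigned.

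The tRNA-Ser between CYTB and ND1 (CFI06_mgt18, positions 11458 to 11523, plus strand) had 7.0, 8.51 and 11.4 CPM in Gr34 brain and 10.8, 11.7 and 11.2 CPM in WT brain, and 7.52, 3.21 and 5.51 CPM in Gr34 fat body and 7.56, 5.11 and 2.55 CPM in WT fat body. The genotypes overlapped in both tissues. tRNA-His (CFI06_mgt15, positions 7956 to 8021, minus strand, between ND5 and ND4) had 1.57, 1.94 and 2.71 CPM in Gr34 brain and 2.85, 2.89 and 3.53 CPM in WT brain. Every Gr34 brain library lay under every WT brain library, at -0.56 ± 0.26 on the log2 scale (adjusted p = 0.251, edgeR). In fat body tRNA-His had 2.13, 1.31 and 2.93 CPM in Gr34 libraries and 4.61, 1.67 and 1.25 CPM in WT libraries, which overlap. In CPM, 8 of the 13 rows tested in brain did not overlap between genotypes, 6 higher and 2 lower in Gr34, where 29.3% of all tested genes did not overlap, 13.6% being higher and 15.7% lower. In TPM it was 7 of 13, against 25.3% of all tested genes, with tRNA-His the 1 lower row. The median log2 fold change over the 13 rows was 0.26, against 0.01 over all genes tested.

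Clustered between ND3 and ND5 are tRNA-Arg (CFI06_mgt09, positions 5791 to 5850, plus strand) and tRNA-Ala (CFI06_mgt10, positions 5855 to 5923, plus strand). tRNA-Arg had 3.36, 3.45 and 4.70 CPM in Gr34 brain and 3.53, 4.17 and 5.05 CPM in WT brain, and 9.52, 4.24 and 6.54 CPM in Gr34 fat body and 5.84, 3.39 and 1.38 CPM in WT fat body. tRNA-Ala had 0.897, 0.907 and 1.22 CPM in Gr34 brain and 0.522, 0.922 and 1.14 CPM in WT brain, and 2.0, 0.741 and 1.2 CPM in Gr34 fat body and 0.799, 0.526 and 0.283 CPM in WT fat body. In brain both rows overlapped between genotypes. In fat body they overlapped in CPM but not in TPM, where tRNA-Arg stood at 137 to 148 in Gr34 libraries and 42.8 to 88.2 in WT libraries, and tRNA-Ala at 20.4 to 27.1 in Gr34 libraries and 8.15 to 12.1 in WT libraries. Their log2 fold changes in fat body were 1.00 ± 0.57 and 1.35 ± 0.60 and were not called. tRNA-Met, first on the genome, had 23.6, 32.9 and 12.1 counts in Gr34 brain and 38.7, 24.6 and 11.9 in WT brain, and 11.7, 14.9 and 3.43 in Gr34 fat body and 8.74, 11.7 and 7.79 in WT fat body. The short tRNA-Leu beyond 12S (CFI06_mgt21, positions 14789 to 14840, minus strand, 52 bases) passed the filter in brain but not in fat body by genotype. It had 13.6, 22.3 and 49.4 counts in Gr34 brain and 53.1, 55.6 and 35.7 in WT brain, and 3.59, 2.79 and 2.57 in Gr34 fat body and 1.97, 1.33 and 1.40 in WT fat body, with a brain log2 fold change of -0.54 ± 0.45 that was not called.

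In fat body 12 rows passed the filter and edgeR called none by genotype, where 0.234% of all tested genes were called. Of these rows, 1 had an unadjusted p under 0.05, and DESeq2 called 1, tRNA-Lys, against 2.92% of all tested genes. tRNA-Lys was also the only row called in fat body in the authors' deposited table (log2 fold change 3.14, adjusted p = 0.0239), among 16 with an adjusted p. In CPM it alone of the 12 did not overlap between genotypes, where 11.2% of all tested genes did not. In TPM, 5 of the 12 did not overlap, all higher in Gr34 fat body, against 9.29% of all tested genes: tRNA-Lys, tRNA-Tyr, tRNA-Gly, tRNA-Arg and tRNA-Ala. The median log2 fold change over the 12 rows was 0.58, against 0.00 over all genes tested. In the fit of all libraries, a difference in genotype effect between the tissues was called for 0 of 14 rows by edgeR and 0 by DESeq2, where edgeR called 0.467% and DESeq2 2.10% of all genes; none of the rows had an unadjusted p under 0.05 in edgeR.

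**Figure D3:**
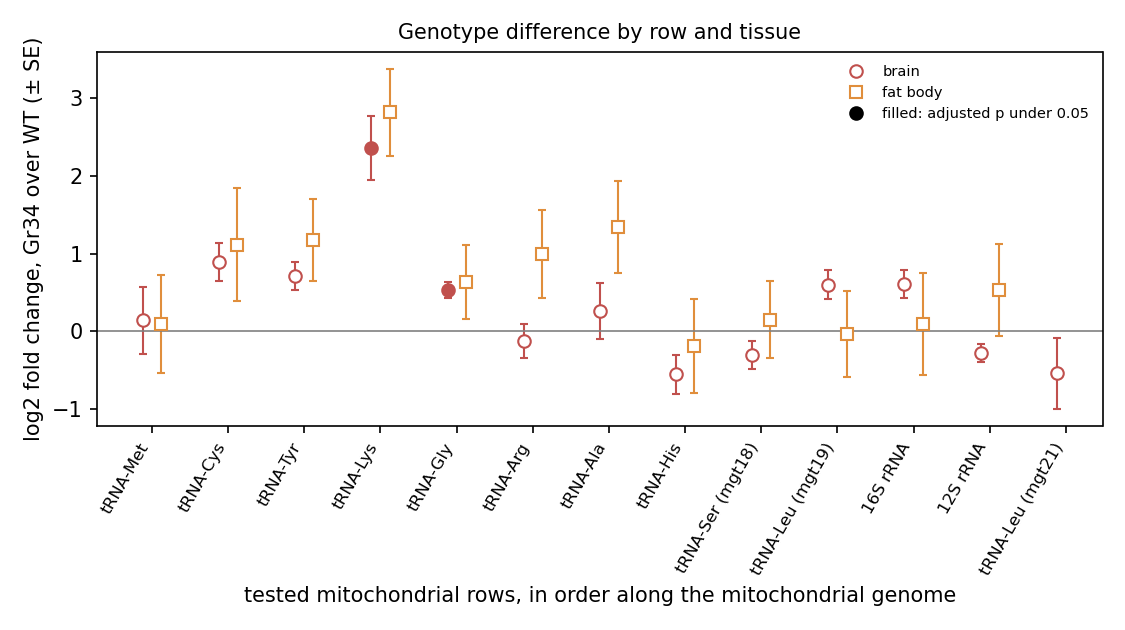
Log2 fold change (Gr34 over WT) with SE from edgeR for each row that passed the filter, in genome order, in brain (circles) and fat body (squares); filled symbols have an adjusted p under 0.05. tRNA-Lys stands highest in both tissues, at 2.36 in brain and 2.83 in fat body, and the fat body error bars are wider.

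The remaining rows had few counts. Of the 25, 8 never reached 10 counts in any library, and 5 stayed under 3 counts in every library: tRNA-Glu, tRNA-Thr, tRNA-Ile, tRNA-Gln and the tRNA-Ser beside tRNA-Asn (CFI06_mgt12). The tRNA-Leu between COX1 and COX2 (CFI06_mgt05) passed only in the fit of all 12 libraries, with 11.6, 17.4 and 6.43 counts in Gr34 brain and 12.2, 9.15 and 7.71 in WT brain, and 7.26, 13.1 and 7.90 in Gr34 fat body and 2.55, 5.55 and 2.13 in WT fat body. Its average over tissues was 0.93 ± 0.35 (log2) and was not called. tRNA-Asn (CFI06_mgt11) was under the filter in each comparison of genotypes, with 9.01, 7.86 and 8.07 counts in Gr34 brain and 7.46, 4.75 and 6.27 in WT brain, and 3.83, 4.02 and 3.16 in Gr34 fat body and 1.95, 1.36 and 1.53 in WT fat body. Its Gr34 libraries lay above its WT libraries in both tissues, in counts, CPM and TPM. tRNA-Phe, tRNA-Pro and tRNA-Val ranged from 0.00 to 11.7 counts over all libraries.

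Between tissues in the wild type, 12S fell in fat body, and no difference in 16S passed the test. 12S averaged 0.645 ± 0.278 CPM in WT fat body and 12.3 ± 1.24 CPM in WT brain (SD, n = 3 each), a log2 fold change of -4.29 ± 0.39 (adjusted p = 0.000104, edgeR). The short tRNA-Leu beyond 12S averaged 0.0704 ± 0.0456 CPM in WT fat body and 1.86 ± 0.33 CPM in WT brain (SD, n = 3 each), at -4.74 ± 0.50 (adjusted p = 0.000176, edgeR). These were the rows with the largest tissue differences, and they neighbour each other on the same strand. 16S averaged 5040.4 ± 2563 CPM in WT fat body and 5089 ± 656 CPM in WT brain, at -0.04 ± 0.47 (adjusted p = 0.950, edgeR). tRNA-Gly (-1.16 ± 0.37, adjusted p = 0.0281) and the tRNA-Ser between CYTB and ND1 (-1.18 ± 0.38, adjusted p = 0.0271) also fell in WT fat body in edgeR, although each call was lost without WT fat body replicate 2 or any one WT brain library, with adjusted p up to 0.0936 and 0.0891. Of the 12 rows tested, 4 were called, all lower in WT fat body, where 64.7% of all tested genes were called in either direction and 32.7% lower. The same 4 rows and tRNA-Tyr did not overlap between the tissues, all 5 lower in WT fat body, where 72.3% of all tested genes did not overlap and 37.0% were lower. In TPM, 10 of the 12 did not overlap, all lower in WT fat body, leaving 16S and the tRNA-Leu abutting it. Of all tested genes, 65.1% did not overlap in TPM in either direction. That scale shifts genes as a whole downward in WT fat body. On log2(TPM + 1) the median log2 fold change over all tested genes was -0.41, against 0.02 in edgeR. With limma on that scale, 38.0% of all tested genes were called lower and 19.2% higher. The counts of 12S in WT fat body, 8.46 to 16.8 a library, limit the precision of its fold. With libraries made from polyA RNA, rRNA counts need not track the total rRNA of either tissue.

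**Figure D4:**
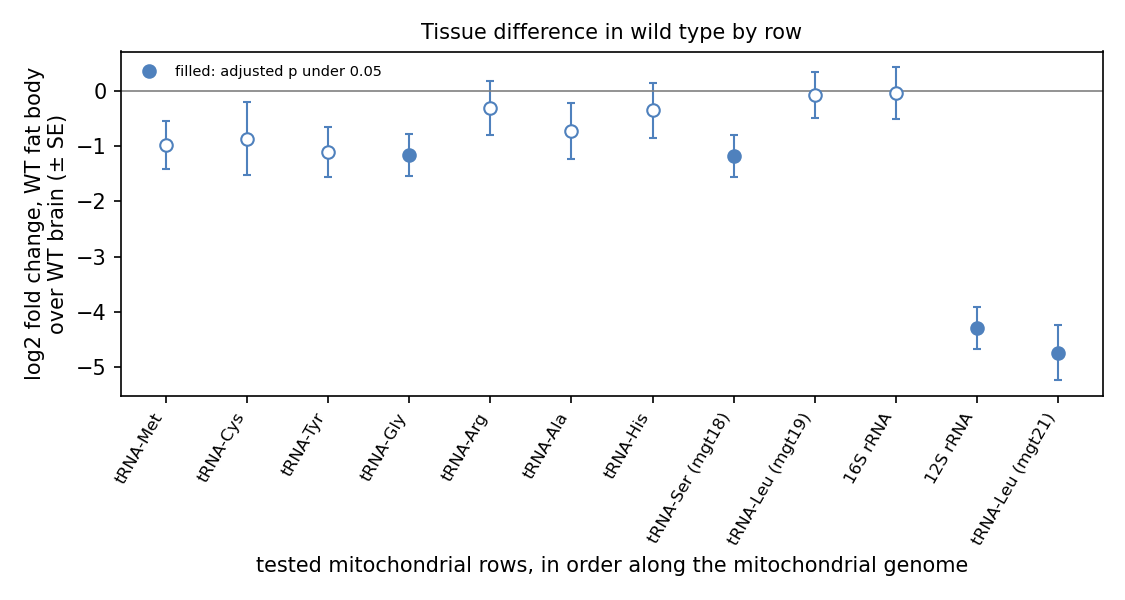
Log2 fold change (WT fat body over WT brain) with SE from edgeR for each row tested, in genome order; filled symbols have an adjusted p under 0.05. 12S and the short tRNA-Leu beyond it lie at -4.29 and -4.74, and 16S and the tRNA-Leu abutting it lie at -0.04 and -0.08.

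The share of all counts that fell in mitochondrial rows followed 16S. It was 0.710%, 0.807% and 1.04% in Gr34 brain and 0.544%, 0.501% and 0.592% in WT brain. All Gr34 brain libraries were higher, by 0.306 percentage points on average, with a two-sided exact permutation p of 0.1, the smallest that 3 against 3 allow. In fat body the share was 0.658%, 0.396% and 0.311% in Gr34 libraries and 0.429%, 0.704% and 0.252% in WT libraries. The genotypes overlapped, and their means of 0.455% in Gr34 and 0.462% in WT fat body differed by less than the spread between replicates (exact permutation p = 1). The genotype effect on the share differed between fat body and brain by -0.31 percentage points (exact permutation p = 0.165 over 400 arrangements, 0.165 adjusted over 3 measures). The tRNA counts without the tRNA-Leu abutting 16S were taken as a log2 ratio to 16S. This ratio differed between genotypes by -0.30 in brain (exact permutation p = 0.3) and 0.78 in fat body (p = 0.2). The difference between tissues of 1.08 had an exact permutation p of 0.05 and 0.075 after adjustment. For the share and this ratio alike, the null of the permutation between tissues is no genotype effect in either tissue, not an equal effect.

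Nuclear genes for mitochondrial gene expression were taken from a list of 43 genes matched by their descriptions: 6 for transcription, 17 for RNA processing and decay, 7 for DNA maintenance and 13 aminoacyl-tRNA synthetases. None of the 43 was called by genotype in edgeR, in brain, where 8.86% of all tested genes were, or in fat body, where 0.234% were. In brain 8 of them had an unadjusted p under 0.05 in edgeR. DESeq2 called 3 there, against 13.7% of all tested genes: probable phenylalanine--tRNA ligase (LOC5563913) and probable leucine--tRNA ligase (LOC5568790), higher in Gr34, and the RNA helicase SUV3 homolog (LOC5569268), lower, picked out after their values were seen. In edgeR these had log2 fold changes of 0.33 ± 0.09, 0.37 ± 0.10 and -0.42 ± 0.11 (adjusted p = 0.0619, 0.0699 and 0.0641). In fat body 3 of the 43 had an unadjusted p under 0.05 in edgeR and DESeq2 called 0. Their summed share of counts in brain did not overlap between genotypes for transcription, at 0.0273% to 0.0301% in Gr34 and 0.0221% to 0.0270% in WT libraries. Of that list the mitochondrial RNA polymerase (LOC5572646) alone averaged 194 CPM in Gr34 brain and 167 CPM in WT brain. RNA processing and decay did not overlap either, at 0.0306% to 0.0325% in Gr34 and 0.0278% to 0.0300% in WT libraries. DNA maintenance overlapped, at 0.0311% to 0.0355% in Gr34 and 0.0277% to 0.0356% in WT libraries. So did the synthetases, at 0.0195% to 0.0213% in Gr34 and 0.0185% to 0.0208% in WT libraries. Over the 43 genes the median log2 fold change was 0.06 in brain and -0.02 in fat body, against 0.01 and 0.00 over all genes tested. Between tissues, 30 were higher and 1 lower in WT fat body: 3 higher in transcription, 14 in RNA processing and decay, 5 in DNA maintenance, and 8 higher with 1 lower among the synthetases. Of all tested genes, 32.0% were higher there. Ovary markers (21 genes, 1 at 0 in every library) took 0.0620%, 0.295% and 0.448% of counts in WT fat body, by replicate. In WT brain they took 0.0198% to 0.0225%. The RNA processing and decay list took 0.0564%, 0.0637% and 0.0765% in the same WT fat body libraries. Each of the other nuclear lists was likewise lowest in WT fat body replicate 1 and highest in replicate 3. The part of ovary content in these tissue differences was not tested. The mitochondrial poly(A) RNA polymerase (LOC5567824), which adds A tails to mitochondrial RNA, averaged 49.7 ± 4.68 CPM in WT fat body and 15.0 ± 1.23 CPM in WT brain (SD, n = 3 each; log2 fold change 1.70 ± 0.18). A pair of genes described as LRPPRC, which in mammals stabilises mitochondrial mRNAs, rose in WT fat body by 1.72 ± 0.20 (LOC5567369) and 1.46 ± 0.21 (LOC5569371) on the log2 scale. Tyrosine--tRNA ligase (LOC5573525), which charges tRNA-Tyr, rose in WT fat body by 1.87 ± 0.20, and the probable glutamate--tRNA ligase (LOC5566937) fell there by 1.92 ± 0.22. The genome-packaging factor TFAM (LOC5578318) rose by 1.04 ± 0.17, a call lost on both TPM scales (adjusted p = 0.187 and 0.189, limma), and the transcription initiation factor annotated as dimethyladenosine transferase 2 (TFB2M, LOC5576522) by 1.03 ± 0.31, a call lost without any one of the WT brain libraries (adjusted p up to 0.0760, edgeR), with library size only (adjusted p = 0.1, edgeR), with a replicate block (adjusted p = 0.0515, edgeR) and on both TPM scales (adjusted p = 0.399 and 0.427, limma). The mitochondrial RNA polymerase POLRMT (LOC5572646) averaged 199 ± 30.5 CPM in WT fat body and 167 ± 14.7 CPM in WT brain and was not called (0.23 ± 0.19, adjusted p = 0.326, edgeR), and its sign turned on the TPM scale.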

How the data were processed

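The authors deposited estimated counts and TPM values per gene and library and tables of DESeq2 results per tissue whose log2 fold changes and adjusted p-values, per the file headers, were used only where named. Per the submitters' processing notes, which give no versions, their tools were FastQC, STAR, Subread's featureCounts and DESeq2; the sources used here do not name a build. Of the 25 rows, 24 have the start and end of the AaegL5.0 reference table; tRNA-Met has no position in the deposited tables. Gene lengths implied by the counts and TPM equal the reference lengths.

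Estimated counts were rounded and fitted with edgeR 4.0.16 in R 4.3.3 over all genes: TMM, filterByExpr (minimum count 10, total 15), robust dispersions, quasi-likelihood F-test, two-sided, Benjamini-Hochberg over all tested genes, threshold 0.05 ("called"). Brain, fat body and wild-type tissues were fitted on their own 6 libraries; the difference between tissues and the average over tissues came from all 12. SE is the absolute log2 fold change over the square root of F. CPM uses TMM factors over all 12 libraries and rounded counts. Shares and ratios were compared by two-sided exact permutation tests. For a difference between tissues they shuffled genotype within each tissue, so their null is no genotype effect in either tissue. Each p-value reflects only the spread between the libraries, which may be partly technical. DESeq2 1.42.0 and limma 3.58.1 served as alternatives. The scripts were tested on simulated data. All pairs of libraries of a group differed beyond sampling noise.

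The members and gene lists were chosen with earlier results of these data known. All mitochondrial rows were members; rows that passed the filter were given by library and the others by range, except tRNA-Asp, tRNA-Trp and tRNA-Asn, named after their values were seen. Nuclear genes named were the called ones with the smallest adjusted p, up to 3 in each direction, and TFAM, TFB2M, POLRMT, LRPPRC and the poly(A) polymerase. A planned ratio of rRNA to protein-coding counts, and shares restricted to protein-coding rows, could not be computed; the ratios of 12S and of tRNA to 16S, and the overlap of libraries in TPM, were added after seeing the data.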

Additional observations from a re-analysis of the deposited data

Results flagged for a closer look

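The log2 ratio of 12S to 16S counts stood out because the genotype difference had opposite signs in the tissues. Gr34 minus WT was 0.43 in fat body and -0.87 in brain, and the difference between the 2 effects was 1.30. Shuffling genotype within each tissue gave an exact permutation p of 0.005 over 400 arrangements, 0.015 adjusted over 3 measures. Its null is no genotype effect in either tissue, so it does not test whether the effects are equal. This ratio was chosen after the data were seen, so these p-values do not test a pattern set in advance. Its fat body values rest on 12S counts of 10.2 to 22.5 in Gr34 and 8.46 to 16.8 in WT libraries, which limit their precision. The libraries were made from polyA RNA, so the ratio need not equal that of the rRNAs in the tissue. The cause was not tested.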

How the results depend on the processing

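Calls in Gr34 against WT brain (share of all tested genes called in parentheses) numbered 4 with library size only (8.81%), 6 with DESeq2 (13.7%), 3 with no filter (6.92%), 1 with a filter of 1 CPM in 3 libraries (7.85%), 5 with limma on log2(TPM + 1) (8.96%) and 5 on log2(TPM + 0.1) (8.74%), 1 with all 12 libraries in one fit (2.67%), and 0 to 4 with a library left out (3.35% to 8.06%), the 4 without Gr34 brain replicate 3. In fat body DESeq2 and the fit of all 12 libraries called 1 each (2.92% and 2.82%), and leaving out any library gave 0. For WT fat body against WT brain both TPM settings called 10, all lower (57.3% and 56.6%; lower 38.0% and 37.4%), and leaving out a library gave 2 to 7 (53.1% to 74.1%), the 7 without WT fat body replicate 1. The average over tissues gave 2 with library size only (4.38%), 2 with DESeq2 (8.91%), 3 with no filter (3.86%), 0 with 1 CPM in 3 libraries (3.92%; this removes tRNA-Lys), 4 on either TPM scale (4.75% and 4.41%), and 1 to 3 with a library left out (2.79% to 6.02%), 3 without WT fat body replicate 1. The difference between tissues kept a count of 0 under each setting run.

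The fat body difference in mitochondrial share (Gr34 minus WT) turned to 0.00110 over rows other than 16S, 0.0240 without the 100 most abundant nuclear genes, 0.0227 without Gr34 fat body replicate 2, 0.0652 without Gr34 fat body replicate 3 and 0.114 without WT fat body replicate 2, over a range of -0.112 to 0.114. WT fat body minus WT brain ran from -0.205 to 0.0210, turning without WT fat body replicate 3. POLRMT between tissues turned to -0.25 and -0.26 on the TPM scales, where the median over all genes was -0.41 and -0.49; LOC110675128 ran from -0.45 to 0.081, turning without WT fat body replicate 3. The cause was not tested.

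Replicate numbers did not pair the libraries throughout. Same-numbered libraries correlated at -0.36, 0.32 and -0.05 in brain and 0.83, 0.83 and -0.56 in fat body. Between genotypes, the same number correlated highest for brain replicate 2 and fat body replicates 1 and 2 only, so pairing in fat body was not settled. With a replicate block, calls were 4 in brain (6.47%), 0 in fat body (0.467%), 4 between tissues (59.6%), 0 for the difference between tissues (0.140%) and 1 for the average (3.88%). Rows under 10 counts limit what can be detected.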

Other observations

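Chosen after their values were seen, 3 nuclear genes described as NADH-ubiquinone oxidoreductase chain 1-like carry the name of a mitochondrially encoded subunit. LOC110675128, on chromosome 2 at 114498030 to 114500116, had 10806, 12432 and 13110.3 counts in Gr34 brain and 13504, 8800.4 and 8156 in WT brain, which is 6.10% to 8.10% of the 16S count over the 12 libraries. Its brain log2 fold change was 0.50 ± 0.11 (adjusted p = 0.0310, edgeR), and the call was lost with any one brain library left out (adjusted p 0.0520 to 0.143). LOC110678114 and LOC110678115, on chromosome 3, had near-equal counts in every library and fell in Gr34 brain by 0.62 ± 0.09 each on the log2 scale (adjusted p = 0.00953 and 0.00946, edgeR); reads of such copies cannot be assigned with certainty. Without WT brain replicate 2 or Gr34 brain replicate 1 both calls were lost, with adjusted p up to 0.0591.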
